A study of Mus musculus with 5 samples.

Results

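RBM7 is an RNA-binding protein that guides short-lived nuclear transcripts to the RNA exosome, and 10 genes of this pathway were examined in 5 clones of 4T1, a mouse mammary carcinoma cell line. The genes were Rbm7, Zcchc8, Skiv2l2, Zfc3h1, Exosc2, Exosc3, Exosc9, Exosc10, Dis3 and Ncbp1, found by symbol, and all 10 are among the 13143 genes listed in the deposited count table. They were chosen because Rbm7 had 0 counts in both TAZ knockout (TAZ-KO) clones, hereafter also the knockout clones, so the Rbm7 counts are given as a description without a test.

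The study asked what TAZ, a transcriptional co-activator of the Hippo pathway encoded by Wwtr1, does in breast cancer cells. RNA was sequenced from 3 wild-type (WT) clones and 2 TAZ-KO clones, 1 library each, of cells kept in culture with no treatment. All 5 clones carry Cas9, delivered by lentivirus under blasticidin selection. The WT clones were single-cell clones of these Cas9 cells that received no guide. Both TAZ-KO clones come from 1 chosen Cas9 clone, were infected with a further lentivirus carrying the same guide against Wwtr1 and were selected with puromycin. It is not stated whether the WT clones share that founder. The guide vector, the puromycin selection and the founder clone therefore cannot be told apart from the loss of TAZ. 4T1 cells are tetraploid, and each library is 1 clone, so that the spread between libraries holds the spread between clones. The study's methods name a batch correction by surrogate variables for the RNA of cultured cells. Which libraries formed a batch is not stated, so a batch and a trait of a clone cannot be told apart.

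The libraries held 14695384 to 16452147 counts, and 3 counts, the floor used here for a library at 0, corresponded to 0.184 to 0.203 CPM (counts scaled to a common library total, with factors by the TMM method). The epithelial markers Epcam, Krt8, Krt18, Krt19 and Cdh1 were present in every library. Ptprc and Itgam (leukocytes) and Pecam1 and Cdh5 (endothelium) had at most 16 counts in any library, whereas the fibroblast markers Col1a1 and Pdgfra had 6 to 110 and 427 to 1729. Wwtr1 had 9728, 5083 and 5114 counts in WT clones 1, 2 and 3, and TAZ-KO clones 1 and 2 had 1947 and 2280. Both knockout clones lay below every WT clone (log2 fold change -1.61, edgeR adjusted p = 0.190, DESeq2 adjusted p = 0.00571). A guide of this kind alters the coding sequence and need not remove the transcript, so these counts do not test the labels. The paper reports that DNA sequencing showed editing of all Taz alleles in its knockout clones. It also reports complete loss of TAZ protein and less Taz mRNA by RT-qPCR. WT clone 1 stood apart from WT clones 2 and 3, and whether by clone or by batch was not tested. Among the 11918 genes with a value in every group, its level lay nearer to the TAZ-KO mean than to the mean of WT clones 2 and 3 in 64.7%. For the chosen genes beside Rbm7, results whose call changed without WT clone 1 are given with and without it. For the wider lists the counts of calls are given both ways, but most single genes only over all clones.

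The RNA exosome is a barrel of non-catalytic subunits to which nucleases are attached. In the nucleus it depends on adaptor complexes that share the helicase MTR4. The nuclear exosome targeting (NEXT) complex joins MTR4 with RBM7 and the scaffold ZCCHC8 and delivers unprocessed, mostly non-polyadenylated RNA such as promoter upstream transcripts and extended small nuclear and small nucleolar RNA. The PAXT connection joins MTR4 with ZFC3H1 and takes polyadenylated RNA, and the TRAMP complex acts mainly in the nucleolus. The nuclear cap-binding complex, of which NCBP1 is the large subunit, links capped transcripts to these adaptors through ARS2.

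Reads of Rbm7 were counted in every WT clone and in neither TAZ-KO clone. Rbm7 (mm10, chromosome 9, 48488701 to 48495299, minus strand, protein-coding) had 227, 255 and 272 counts in WT clones 1, 2 and 3, which were 15.4, 15.6 and 16.8 CPM. TAZ-KO clones 1 and 2 had 0 counts each among 30075350 counts in all, and a count of 0 allows up to 0.198 and 0.200 CPM in these libraries. The WT mean was 15.9 ± 0.737 CPM (SD, n = 3), with a coefficient of variation of 4.62%. The WT level was at least 80.0-fold higher than the floor of 3 counts per TAZ-KO library. WT clone 1, which otherwise often resembled the TAZ-KO clones, was at the level of the other WT clones for this gene. In bulk RNA, fewer cells with a transcript and less of it per cell cannot be told apart. The counts are per gene and do not show which part of a transcript was read. A transcript with a changed end therefore cannot be told apart from a missing one.

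Absence of counts of this kind was uncommon among expressed genes. Of 11131 genes with at least 10 counts in each WT clone, 4 (0.0359%) had 0 counts in both TAZ-KO clones. These were Rbm7, the desmosomal cadherin gene Dsc2, the potassium channel gene Kcnj4 and the transcription factor gene Klf8. Rbm7 had the highest mean WT count, 251, followed by Dsc2 with 196, Kcnj4 with 46.7 and Klf8 with 18.3. Counts of Kcnj4 were 11, 53 and 76 in WT clones 1, 2 and 3, and those of Klf8 were 20, 15 and 20. Over the whole table, 77 genes were at 0 in both TAZ-KO clones. In the opposite direction, 5 genes with at least 10 counts in both TAZ-KO clones were at 0 in all WT clones, among them the small nucleolar RNA gene Snord111, which is described further on.

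Among the 5 genes most correlated with Rbm7, all but Dsc2 were lower in the TAZ-KO clones by far less. By the Pearson correlation of log2 CPM (prior count of 2) over the 5 libraries, the gene most like Rbm7 among 11130 was Dsc2 (r = 0.999), with 13.5, 12.7 and 11.3 CPM in WT clones and 0 counts in both TAZ-KO clones. It was followed by Rtfdc1 (r = 0.999), with 69.4, 70.9 and 70.4 CPM against 45.5 and 44.2 CPM. St5 (r = 0.997) was at 50.5, 49.6 and 51.4 CPM in the WT clones against 31.9 and 30.4 CPM in the knockout clones. Chn1, which encodes a Rac GTPase-activating protein, and Macrod1, an ADP-ribosyl hydrolase gene (r = 0.997 for each), stood at 44.3 ± 1.40 against 21.6 ± 0.610 CPM and at 10.4 ± 0.430 against 5.25 ± 0.154 CPM (n = 3 and n = 2). The 5 libraries form 2 groups, so such a correlation mainly restates the difference between WT and TAZ-KO by which Rbm7 was chosen. A correlation of 0.99 was reached by 26 genes.

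The listed genes within 1 Mb of Rbm7 overlapped between the groups. Of 16 other protein-coding genes annotated within 1 Mb, 4 are listed in the table, and the others were not analysed here. Rexo2, an oligoribonuclease gene whose start lies 14.7 kb from that of Rbm7, had 252, 965 and 789 counts in WT clones 1, 2 and 3, whereas knockout clones 1 and 2 had 589 and 875. Usp28, a deubiquitinase gene at 490.1 kb, was at 23.9, 19.6 and 22.6 CPM in the WT clones against 23.5 and 28.7 CPM in the knockout clones. Zw10, a kinetochore gene at 560.3 kb, was at 32.5, 43.1 and 46.9 CPM against 40.5 and 45.4 CPM. Nnmt, the gene of nicotinamide N-methyltransferase at 109.9 kb, had 0, 51 and 6 counts in the WT clones and 0 and 9 in the knockout clones. In none of these 4 genes did the knockout clones stand apart from the WT clones. The divergent gene Gm5617, which starts 143 bases away on the other strand, was not analysed here. The median log2 fold change of TAZ-KO over WT was 0.22 for the 3 tested genes within 1 Mb, 0.25 for the 30 tested within 3 Mb, 0.12 for the 652 other tested genes of chromosome 9 and -0.03 for all genes. Of the 33 other listed genes within 3 Mb, tested or not, 10 lay above every WT clone in both TAZ-KO clones (19.1% of all listed genes) and 1 below (18%). Of the 652 other tested genes of chromosome 9, 151 lay above and 59 below, beside 18.7% and 18.6% of all tested genes. Leaving out either WT clone 1 or TAZ-KO clone 2 brought the median within 1 Mb to -0.06. Along chromosome 9, TAZ-KO clone 2 stood above the WT mean by a median of 0.28 on the log2 scale and TAZ-KO clone 1 by 0.03, and the part of this shift in the values near Rbm7 was not tested.

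**Figure D1:**
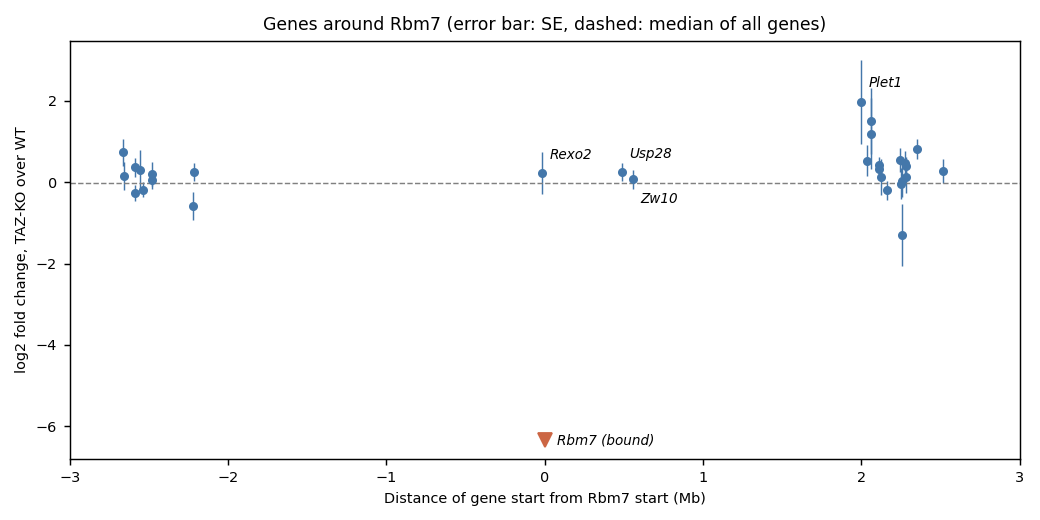
Log2 fold change of TAZ-KO over WT (vertical axis, points with SE) for the tested genes within 3 Mb, by the distance in Mb of their start from that of Rbm7 (horizontal axis). The triangle is the bound for Rbm7, at least 80.0-fold, and the dashed line is the median of all genes, -0.03; Rexo2, Usp28 and Zw10 lie near the line, Plet1 is the highest at 1.97 and Rbm7 is far below.

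The bases just upstream of Rbm7 are shown because the gene was without counts in both knockout clones. They are the 30 bases before the RefSeq start (GRCm38.p6, chr9:48495331-48495360, minus strand), with the letters TGACGT in capitals.
Rbm7 upstream: ctttacgtcgTGACGTctgaacgggaggac
TGACGT, the core of the cAMP response element, was picked after this sequence had been seen. Within 250 bases before to 50 after the start, on either strand, it occurs in 8.37% of 27025 genes and, of the 9 members with a promoter entry, in Rbm7 alone. The letters GGAATG, the core recognised by the TEAD factors through which TAZ acts, occur in 16.6% of genes and in 2 of the 9 members, Exosc2 and Dis3. Matches of this kind describe the letters of the window and not a binding site.

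The partners of RBM7 in NEXT were present in every clone, and their groups overlapped. Zcchc8, which encodes the scaffold (chromosome 5, 123698294 to 123721100), measured 81.8, 93.2 and 115 CPM in WT clones 1, 2 and 3 against 92.7 and 80.6 CPM in knockout clones 1 and 2, with a log2 fold change of -0.16 (SE 0.22, edgeR adjusted p = 0.724). Skiv2l2, now called Mtrex, encodes the helicase MTR4 (chromosome 13, 112867418 to 112927398). It was at 93.3, 116 and 145 CPM in the WT clones against 115 and 109.9 CPM in the knockout clones, with a log2 fold change of -0.07 (SE 0.24, edgeR adjusted p = 0.892). In both genes WT clone 1 was the lowest and WT clone 3 the highest of the WT clones, and the knockout clones were within this range apart from TAZ-KO clone 2 in Zcchc8, just below it.

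Zfc3h1, the zinc finger scaffold of PAXT (chromosome 10, 115384959 to 115432772), had 67.5, 68.3 and 34.2 CPM in the WT clones against 65.2 and 56.8 CPM in the knockout clones. Here WT clone 3 was the low library. The groups overlapped (log2 fold change 0.11, SE 0.33, edgeR adjusted p = 0.880).

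Ncbp1, the large subunit of the nuclear cap-binding complex (chromosome 4, 46138613 to 46172403), had 81.4 CPM in WT clone 1 but 173 and 178 CPM in WT clones 2 and 3. Both TAZ-KO clones lay between, at 125 and 130.3 CPM. Over the 5 clones the log2 fold change was -0.18 (SE 0.36, edgeR adjusted p = 0.808). It was -0.46 without WT clone 1 (adjusted p = 0.0397) and 0.41 with 1 surrogate variable, and the adjusted p ranged from 0.0397 to 1.00 over 13 alternatives.

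Among the subunits of the exosome core, Exosc3 stood below every WT clone in both TAZ-KO clones. EXOSC3 (RRP40) belongs to the cap of the barrel, as does EXOSC2 (RRP4). Exosc3 (chromosome 4, 45316613 to 45342732) measured 52.4, 53.3 and 62.9 CPM in the WT clones against 31.9 and 36.4 CPM in the knockout clones, a mean of 56.2 ± 5.84 (n = 3) against 34.1 ± 3.23 CPM (n = 2). Its log2 fold change of -0.72 (SE 0.21) missed the threshold over all genes (edgeR adjusted p = 0.214). Without WT clone 1 it was -0.76 (adjusted p = 0.0113), and the adjusted p ranged from 0.0113 to 0.734 over 13 alternatives, all with a negative fold change.

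Exosc2 (chromosome 2, 31670715 to 31681349) had 31.9 CPM in WT clone 1 and 67.0 and 74.2 CPM in WT clones 2 and 3, against 35.0 and 37.7 CPM in the knockout clones. WT clone 1 was thus the lowest of all clones. The log2 fold change was -0.67 (SE 0.38, edgeR adjusted p = 0.390) and -0.95 without WT clone 1 (adjusted p = 0.00353, range 0.00353 to 0.898 over 13 alternatives). With 1 surrogate variable it was -0.053. Tested genes of chromosome 2 stood below the WT mean by a median log2 difference of -0.28 in TAZ-KO clone 1 and -0.31 in TAZ-KO clone 2, and the part of this shift in the Exosc2 values was not tested.

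Exosc9, a subunit of the hexameric ring (chromosome 3, 36552606 to 36565727), had 44.1, 53.9 and 55.9 CPM in the WT clones against 68.8 and 52.8 CPM in the knockout clones. TAZ-KO clone 1 was the highest of all clones and TAZ-KO clone 2 lay within the WT range (log2 fold change 0.24, SE 0.22, edgeR adjusted p = 0.571).

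The 2 nuclear nucleases did not pass the test either. Exosc10 (RRP6), a distributive exonuclease (chromosome 4, 148558429 to 148582401), had 180.3, 135 and 155 CPM in the WT clones against 189 and 183 CPM in the knockout clones. Every WT clone was below both knockout clones, though TAZ-KO clone 2 was above by little. The log2 fold change was 0.25 (SE 0.21, edgeR adjusted p = 0.539). Dis3, the processive nuclease at the base of the barrel (chromosome 14, 99075206 to 99099770), had 106, 196 and 242 CPM in the WT clones against 142 and 105 CPM in the knockout clones. WT clone 1 and TAZ-KO clone 2 were the low libraries. The log2 fold change was -0.55 (SE 0.38, edgeR adjusted p = 0.461). It was -0.82 without WT clone 1 (adjusted p = 0.0147, range 0.0147 to 0.980 over 13 alternatives) and 0.012 with 1 surrogate variable. Genes of chromosome 14 were lower in TAZ-KO clone 2 by a median log2 difference of -0.41, with 0.04 in TAZ-KO clone 1, and the part of this shift in the Dis3 values was not tested.

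**Figure D2:**
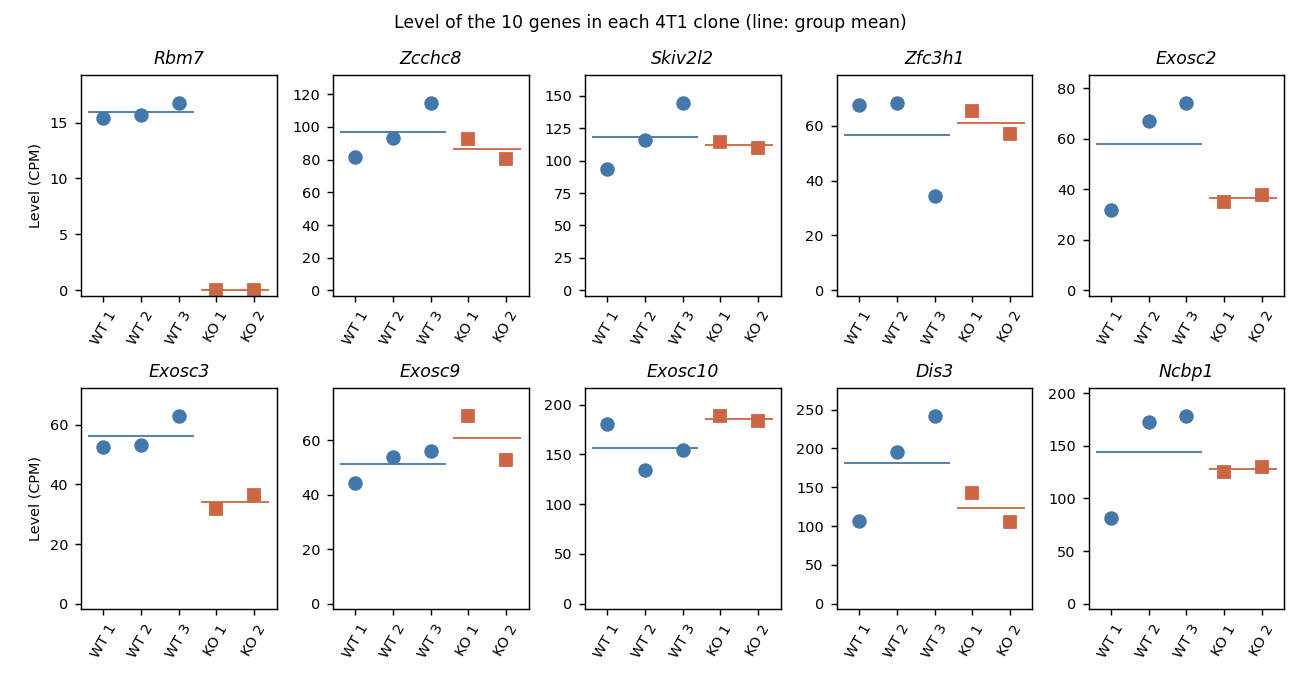
Level in CPM (vertical axis, from 0) of each of the 10 genes in each clone, with WT clones as circles, TAZ-KO clones as squares and the group mean as a line. Rbm7 is at 0 in both TAZ-KO clones and at 15.4 to 16.8 CPM in WT clones, whereas the groups of Zcchc8, Skiv2l2, Zfc3h1, Exosc2, Exosc9, Dis3 and Ncbp1 overlap.

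Counted together, none of the 9 genes beside Rbm7 was called by edgeR over the 11975 genes tested (0.0501% of all genes called, 0.00835% higher and 0.0418% lower), 1 had an unadjusted p under 0.05 (17.4% of all genes), and DESeq2 called 0 (5.53% of all genes). Of the 9, 1 lay above every WT clone in both TAZ-KO clones (18.7% of tested genes) and 1 below (18.6%), and the median log2 fold change was -0.16 against -0.03 for all genes. These shares are close to those of all genes. Without WT clone 1, edgeR called 4 of the 9 lower and 0 higher, Exosc2, Exosc3, Dis3 and Ncbp1, beside 19.7% and 19.1% of all genes (38.7% in either direction). In the same 4 clones 6 of the 9 lay below both remaining WT clones (36.7% of tested genes) and 1 above (36.2%). With all 5 clones and 1 surrogate variable, edgeR called 0 of the 9, beside 528 of the 11975 genes tested. Whether the contrast without WT clone 1 is one of genotype or of batch was not tested. WT clone 1 was nearer to the TAZ-KO clones than to WT clones 2 and 3 in 7 of the 9 (77.8%), beside 64.7% of all genes.

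Exons of Exosc3, Exosc9, Dis3 and Ncbp1 overlap those of other listed genes in the annotation (Dcaf10, Ccna2, Pibf1, and Tstd2 and Xpa). Those of Skiv2l2 and Exosc2, and of Rnu11 described further on, overlap genes not listed under their annotated symbols (Plpp1, Gm13427 and Gm28872). Whether strand was used in counting is not stated, so counts from such overlaps cannot be assigned with certainty.

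The 10 genes were set among 68 genes of RNA decay and related complexes, of which 62 are listed and 60, without Rbm7, were tested. None of the 60 was called by edgeR, 11 had an unadjusted p under 0.05 (17.4% of all genes), and DESeq2 called 4 lower (3.29% of all genes) and 0 higher (2.25%). The knockout clones were both above every WT clone in 8 genes (13.3%, beside 18.7% of all tested genes) and both below in 11 (18.3%, beside 18.6%), which are shares at or under those of all genes. The median log2 fold change was -0.25. Without WT clone 1, edgeR called 29 lower and 6 higher, beside 19.7% and 19.1% of all genes. In the lists that follow, counts of genes above or below every WT clone read against these same shares of 18.7% and 18.6%.

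In the exosome core, 6 of 9 subunits had a negative fold change and 3 a positive one, with 3 of the 9 below every WT clone (18.6% of all genes) and 1 above (18.7%), and a median log2 fold change of -0.35. Beside Exosc3, the ring subunit Exosc5 was at 32.9, 32.5 and 40.5 CPM in the WT clones against 17.3 and 23.6 CPM in the knockout clones (log2 fold change -0.79, SE 0.25, edgeR adjusted p = 0.235). The cap subunit Exosc1 was at 40.6 CPM in WT clone 1, 87.4 and 83.9 CPM in WT clones 2 and 3, and 40.9 and 41.0 CPM in the knockout clones, so that WT clone 1 stood with the TAZ-KO clones (log2 fold change -0.79, SE 0.36, edgeR adjusted p = 0.316). Of the 5 nucleases and cofactors, 3 lay above every WT clone (18.7% of all genes). Dis3l, the cytoplasmic relative of Dis3, was at 32.3, 27.0 and 28.4 CPM against 37.9 and 42.2 CPM (log2 fold change 0.46, SE 0.20, edgeR adjusted p = 0.312), and the RRP6 cofactor Mphosph6 was at 17.1, 31.7 and 25.2 CPM against 19.9 and 18.3 CPM.

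All 3 TRAMP genes had a negative fold change (median -0.77), and 2 lay below every WT clone (18.6% of all genes). Zcchc7, the RNA-binding subunit, was at 21.0, 48.6 and 34.8 CPM in the WT clones against 20.6 and 18.5 CPM in the knockout clones (log2 fold change -0.84, SE 0.38, edgeR adjusted p = 0.312). The poly(A) polymerase gene Papd5 was at 56.1, 124 and 119 CPM against 54.6 and 62.8 CPM (log2 fold change -0.77, SE 0.37, edgeR adjusted p = 0.332). WT clone 1 lay near the TAZ-KO clones in both. Without WT clone 1, all 3 TRAMP genes were called lower by edgeR, as were 19.7% of all genes.

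The 5 PAXT genes had a median log2 fold change of 0.02, with 0 outside the WT range in both TAZ-KO clones. Rbm26 was at 108 ± 36.4 and 77.8 ± 12.4 CPM, and Zc3h3 at 5.61 ± 0.406 and 6.48 ± 0.841 CPM. Of 6 tested genes of cap binding and ARS2, 2 lay above every WT clone (18.7% of all genes). Srrt, which encodes ARS2, was at 283, 171 and 152 CPM in the WT clones against 373 and 382 CPM in the knockout clones, with a log2 fold change of 0.90 (SE 0.31, edgeR adjusted p = 0.247). Ncbp2, the small cap-binding subunit, was at 56.1, 43.6 and 39.6 CPM against 47.9 and 78.8 CPM (edgeR adjusted p = 0.435).

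RBM7 is known from human cells to bind the 7SK particle, which holds the elongation factor P-TEFb inactive, after DNA damage and to be a target of p38 kinase signalling. Of 7 tested genes of 7SK and P-TEFb, 1 lay above (18.7% of all genes) and 1 below every WT clone (18.6%). Hexim1, the P-TEFb inhibitor, was at 127 CPM in WT clone 1, 23.8 and 34.7 CPM in WT clones 2 and 3, and 93.7 and 86.7 CPM in the knockout clones. The kinase gene Cdk9 was at 83.0, 86.8 and 71.0 CPM against 54.5 and 55.6 CPM (log2 fold change -0.54, SE 0.19, edgeR adjusted p = 0.260). The splicing factor gene Srsf3 was at 296 ± 103 and 190.3 ± 36.0 CPM and the p38 substrate Mapkapk2 at 172 ± 41.8 and 132 ± 2.32 CPM. The RBM7 paralogue Rbm11 had at most 6 counts in any library and was not tested. In the cytoplasmic Ski complex and its partners, Ttc37 was at 60.4 ± 28.6 and 40.1 ± 0.638 CPM and Hbs1l at 57.4, 111 and 111 CPM against 74.7 and 59.1 CPM, with 1 of 4 genes outside the WT range. The nuclear exonuclease gene Xrn2 was at 283 ± 19.2 CPM in WT and 204 ± 6.08 CPM in TAZ-KO (log2 fold change -0.47, SE 0.19, edgeR adjusted p = 0.288).

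Most host transcripts of small nucleolar RNA were high in WT clones 2 and 3 alone. Of 12 tested, 11 had a negative fold change (median -1.29), DESeq2 called 4 lower (3.29% of all genes), and edgeR called 10 lower without WT clone 1 (19.7%). Snhg12 was at 42.0, 373 and 424 CPM in the WT clones against 37.8 and 32.9 CPM in the knockout clones (log2 fold change -2.98, SE 0.94, edgeR adjusted p = 0.234). 1500012F01Rik was at 67.3, 360.1 and 420.4 CPM against 45.1 and 33.6 CPM (log2 fold change -2.84, SE 0.78, edgeR adjusted p = 0.212). WT clone 1 was nearer to the knockout clones in 11 of the 12, beside 64.7% of all genes.

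**Figure D3:**
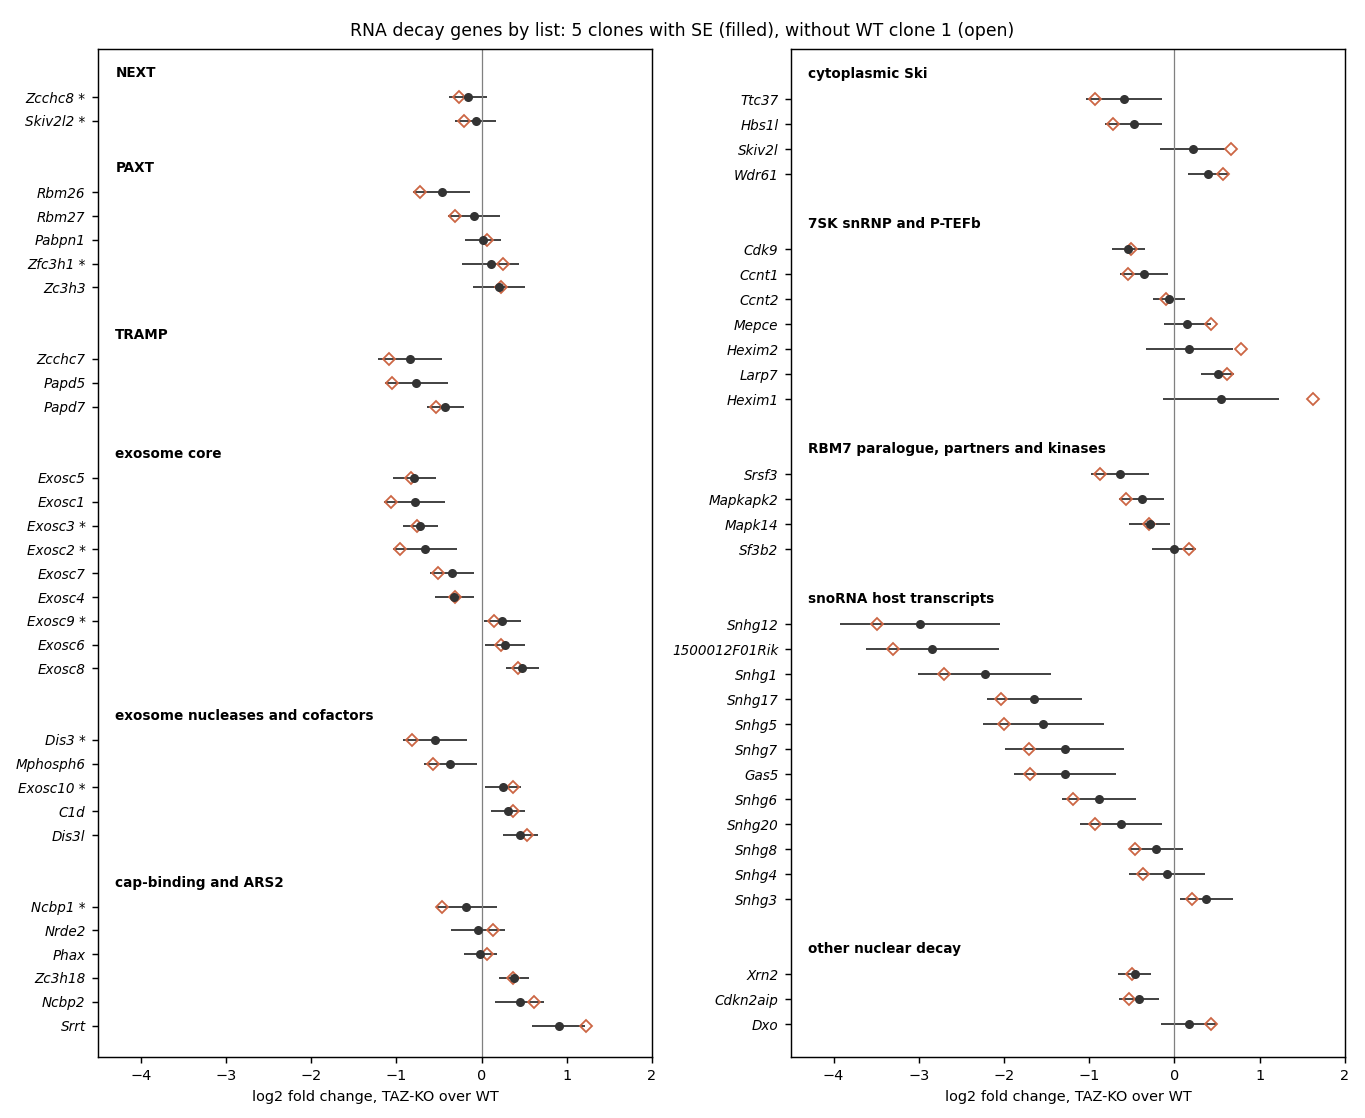
Log2 fold change of TAZ-KO over WT (horizontal axis) for the 60 tested genes by list, over 5 clones with SE (filled points) and without WT clone 1 (open diamonds), with the 9 chosen genes marked by an asterisk. The host transcripts of small nucleolar RNA lie farthest from 0, at -2.98 and -2.84 for Snhg12 and 1500012F01Rik, and leaving out WT clone 1 moves many points away from 0.

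RNA of the classes that NEXT is known to handle was looked at last, as a description chosen after the values had been seen and with no test. The table counts reads per gene and cannot separate mature from extended forms, and the labels name an mRNA protocol, which selects RNA with poly(A) tails. Rnu11 (U11), an RNA of the minor spliceosome, had 0, 1 and 2 counts in WT clones 1, 2 and 3 but 42 and 38 in the knockout clones, a ratio of 41.8 over summed counts (exact 95% interval 13.8 to 207, counting error only). Rnu12 (U12), from the same spliceosome, had 0 counts in all WT clones and 8 and 7 in the knockout clones, at least 2.61-fold higher than the floor of 3 counts per WT library. Terc, the RNA subunit of telomerase, had 3, 4 and 3 counts in the WT clones and 42 and 34 in the knockout clones (ratio 11.9, interval 6.14 to 25.9).

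The sequences of these RNAs are shown because they set the WT and TAZ-KO clones apart without overlap. They come from GENCODE (mm10) as DNA letters. Capitals mark the site for Sm proteins in Rnu11 (chr4:132270080-132270213, minus strand) and Rnu12 (chr15:83149644-83149794, plus strand), letters complementary to the telomere repeat in the first 60 of 423 bases of Terc (chr3:96414800-96414859, minus strand), and the C and D boxes of Snord111 (chr8:110838528-110838616, minus strand).
Rnu11: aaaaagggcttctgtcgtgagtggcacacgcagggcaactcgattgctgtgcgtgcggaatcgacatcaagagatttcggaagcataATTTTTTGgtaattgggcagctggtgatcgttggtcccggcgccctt
Rnu12: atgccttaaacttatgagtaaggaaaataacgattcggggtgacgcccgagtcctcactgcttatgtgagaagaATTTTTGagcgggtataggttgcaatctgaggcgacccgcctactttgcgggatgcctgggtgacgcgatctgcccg
Terc: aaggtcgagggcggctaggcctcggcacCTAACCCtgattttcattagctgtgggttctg
Snord111: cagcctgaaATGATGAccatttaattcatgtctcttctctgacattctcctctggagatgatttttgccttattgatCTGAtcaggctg

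Snord111, a C/D box small nucleolar RNA within the gene Sf3b3, had 0 counts in all WT clones and 11 and 10 in the knockout clones, at least 3.65-fold above the same floor. An annotated exon of Sf3b3 overlaps Snord111 on the same strand, so the counts of Snord111 cannot be assigned to the small RNA with certainty. Of 84 listed small nucleolar RNA genes, 38 (45.2%) lay above every WT clone in both TAZ-KO clones and 3 below, beside 19.1% and 18% of all listed genes. Exons of other listed genes overlap 40 of the 84, and of the 44 without such an overlap 23 (52.3%) lay above every WT clone. Over all 84, of which 83 had a ratio, the median ratio was 1.57, beside 0.984 for all listed genes. Without WT clone 1 the count above was 41 of the 84 (48.8%, beside 36.1% of all listed genes) and that below 14 (16.7%, beside 35.1%). Snord17 had 6, 5 and 13 counts against 54 and 55, and Rnu73b had 6, 6 and 4 against 40 and 38. Over all 5 clones the 3 below every WT clone were Snord15b, Snord38a and Snord42b, the last with 13, 14 and 13 counts against 10 and 4. Of 3 listed small Cajal body RNAs, 2 lay above every WT clone in both TAZ-KO clones (19.1% of all listed genes). Scarna6 had 2, 0 and 1 counts against 8 and 9, and Scarna2 had 3, 1 and 0 against 7 and 9. Scarna13 overlapped between the groups, with 1, 4 and 6 counts against 9 and 2. The RNAs of the endonucleases MRP and P were not higher. Rmrp had 33, 27 and 32 counts against 24 and 20, with both knockout clones below every WT clone in CPM (18% of all listed genes). Its ratio was 0.751 (interval 0.512 to 1.09). Rpph1 had 9, 11 and 18 counts against 15 and 4. Exons of Ccdc107 and Ccnb1ip1 overlap Rmrp and Rpph1. Counts of histone cluster genes and of the ribosomal RNA precursor, whose RNA is mostly without poly(A) tails, were also higher in the knockout clones. Of 50 histone cluster genes, 46 (92%) lay above every WT clone, beside 19.1% of all listed genes. Rn45s had 110989, 91240 and 111483 counts against 138190 and 143684 (ratio 1.41, edgeR adjusted p = 0.373). With a protocol that selects such tails, these counts need not follow the level of RNA without them. The part that RNA without poly(A) tails as a whole has in the values above was not tested.

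**Figure D4:**
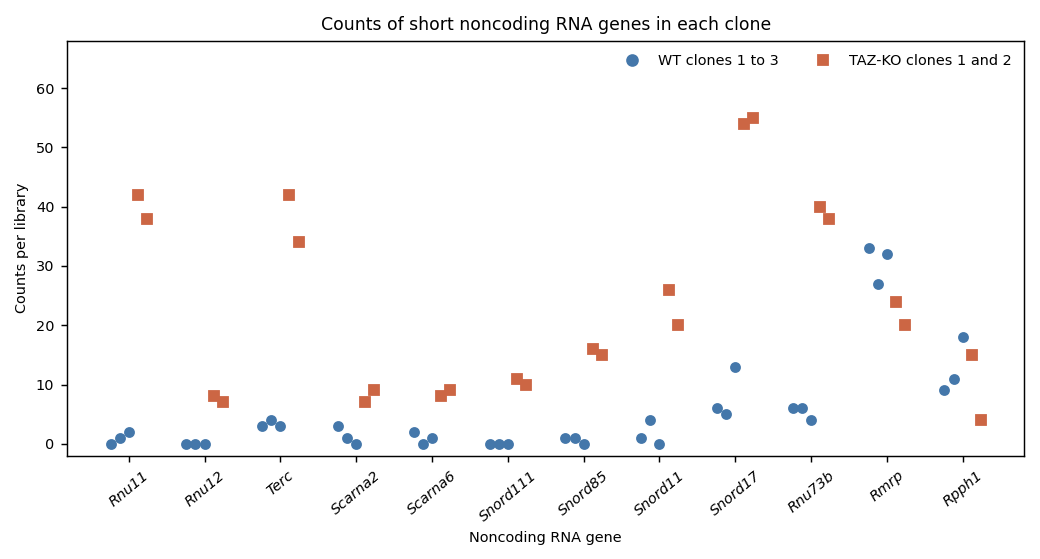
Counts per library (vertical axis) of 12 short noncoding RNA genes, chosen after their values were seen, in WT clones (circles) and TAZ-KO clones (squares). Rnu11, Rnu12, Terc and Snord111 lie at 0 to 4 counts in the WT clones and at 7 to 42 in the knockout clones, whereas Rmrp and Rpph1 are not higher. All small nucleolar RNAs shown lie above every WT clone in both knockout clones. Those whose groups overlap and the 3 that lie below (Snord15b, Snord38a and Snord42b) are not shown. Scarna13, whose groups overlap, is not shown either.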

How the data were processed

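RNA sequencing of 5 libraries (3 WT and 2 TAZ-KO 4T1 clones) was re-analysed from the deposited table. The study's methods describe libraries by MARS-seq adapted to bulk RNA, with a barcode added at reverse transcription, and the labels name total RNA and an mRNA protocol. The authors trimmed reads with cutadapt, aligned them with STAR to GRCm38 (mm10) and deposited raw counts per gene, from the UTAP pipeline. The authors also deposited a normalised signal (counts divided by a size factor, and its mean), regularised log2 values, and the log2 fold change, p-value and adjusted p-value of their own comparison, none of which was used. The submitters' processing notes name DESeq2. In the table the TAZ-KO libraries have column names with YAP in them, but the sample labels holding these names give TAZ knockout, and the labels set the groups.

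The main test was edgeR 4.0.16 (R 4.3.3), a quasi-likelihood F-test with TMM scaling, filterByExpr, a genotype term alone and p-values adjusted by Benjamini-Hochberg over 11975 genes at an adjusted p of 0.05. The SE was derived from F and the log2 fold change. The p-values measure only the spread between these libraries, of which any batch is a part. The members and all lists were chosen with earlier results of these data known. Named genes were the members, Wwtr1, in each list up to 2 others with the largest absolute fold change, the listed genes within 1 Mb of Rbm7 and the 5 most like it, and further genes were chosen after their values were seen. Also run were edgeR with size factors of DESeq2, total counts, both other low-count filters, DESeq2 1.42.0, limma-voom (limma 3.58.1), a replicate block, 1 surrogate variable (sva 3.50.0), a wider distance of 3 Mb around Rbm7, and each library left out. Counts of groups apart without WT clone 1 were added after seeing the data. GENCODE M21 held 12670 of 13143 symbols as written, with 3 members of the lists matched by newer names, and promoters came from RefSeq. With 3 libraries against 2, the precision of each difference is set by the spread between libraries rather than by depth, except for genes with few counts. Of the list genes, Ncbp3, Snhg15, Snhg16, Snhg18, Zfas1 and Epb41l4aos were not analysed here.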

Additional observations from a re-analysis of the deposited data

How the results depend on the processing

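Of 117 values of the 9 genes beside Rbm7 under alternatives, 103 kept their direction and side of the threshold, 4 passed it (all without WT clone 1) and 10 changed direction, none of them called. With the replicate block the log2 fold change was 0.11 for Skiv2l2, -0.16 for Zfc3h1 and 0.10 for Ncbp1. With 1 surrogate variable it was 0.017 for Zcchc8, 0.17 for Skiv2l2, -0.061 for Zfc3h1, 0.012 for Dis3 and 0.41 for Ncbp1, and with 1 library left out it ranged from -0.21 to 0.10 for Skiv2l2 and from -0.16 to 0.26 for Zfc3h1. The cause was not tested. Over all genes, edgeR called 6, against 10 with no low-count filter, 699 with DESeq2, 528 with 1 surrogate variable and 0 with the replicate block; leaving out 1 library gave 0 to 4598 calls, the highest without WT clone 1. Of the 9 genes, leaving out 1 library gave 0 to 4 calls, and of the wider lists 0 to 35, with 4 calls by DESeq2 and 2 with 1 surrogate variable. The 2 genes of the 9 whose groups were apart became 7 without WT clone 1. The median near Rbm7 ranged from -0.063 to 0.29 when 1 library was left out, and the bound for Rbm7 from 77.9 to 81.4. Deviations of same-numbered libraries correlated at -0.119, which gave no sign that replicate numbers pair the samples. This check is limited, since the deviations of 2 TAZ-KO clones from their mean are always opposite. With the block 0 of all genes were called, so its 0 calls among the 9 genes and the wider lists are no separate result. Depth limits genes with few counts, such as Rnu12 and Nnmt, for which intervals and floors cover counting error only.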
